A study of Mus musculus with 4 samples.

Results

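The nuclei described here were chosen by genes of medium spiny neurons from 4 single-nucleus RNA libraries labelled as mouse hippocampus. A check on other genes, given below, bore that name out for 85.0% of them in the library that held most. The share was 60% in the wild-type library and lower in the rest. Doublets (2 nuclei under 1 barcode) can pass this check. In the library that held most, 460 of 828 nuclei passed it and had no doublet call. The choice used measured values: a nucleus needed at least 500 detected genes, at least 1 UMI (unique molecular identifier, 1 counted RNA molecule) of Gad1 or Gad2, at most 1 UMI of Slc17a7, and a UMI of at least 4 of the 8 striatal genes Drd1, Drd2, Ppp1r1b, Rgs9, Pde10a, Penk, Adora2a and Rarb. This choice found 890 of 60288 deposited barcodes, 828 of them (93.0%) in 1 library. Levels of the 8 genes, of Gad1, Gad2 and Slc17a7 are therefore descriptions of the choice and not results.

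Medium spiny neurons are the GABAergic projection neurons that make up most of the striatum. They receive dopamine, which acts through G proteins on adenylyl cyclase, cyclic AMP and the phosphatase inhibitor DARPP-32. One class carries the dopamine receptor D1 and the peptides substance P and dynorphin and forms the direct pathway, and the other carries the receptor D2, an adenosine receptor encoded by Adora2a and enkephalin and forms the indirect pathway. Their dendrites make the endocannabinoid 2-arachidonoylglycerol, which acts on presynaptic CB1 receptors and is broken down by monoacylglycerol lipase (MAGL, encoded by Mgll).

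The study compared 4 genotypes with 1 library each: wild type, Total/global MAGL-KO (a knockout in the whole animal, here the total knockout), Astrocyte specific MAGL-KO and Neuron specific MAGL-KO. The sources used here give neither the Cre lines behind the cell-specific knockouts, nor the number, age and sex of the animals in a library, nor whether animals were pooled. No genotype has a replicate, so there is no test: the library and the genotype cannot be told apart, no p-value is given, and every interval is a 95% interval that covers counting error only.

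The libraries held between 8945 and 31243 barcodes and between 81623644 and 193307038 UMIs. The total knockout library was the largest in both, and Scrublet called 23.3% of its barcodes doublets (2 nuclei under 1 barcode) against 1.98% to 5.87% in the other libraries. Of the 58693 distinct barcode sequences, 1580 occurred in more than 1 library, and 39 of the chosen nuclei had such a barcode. No barcode was chosen in more than 1 library. Zbtb20, a factor of hippocampal excitatory neurons that was also listed for the ventral striatum, was detected in between 76.5% and 89.0% of excitatory nuclei of the 4 libraries. This 1 gene does not check the tissue label. The targeted gene Mgll stayed detectable in the library labelled total knockout. In the other inhibitory nuclei, defined below, it measured 123 CPM (UMIs per 1000000 UMIs of those nuclei) in wild type, 116 in the total knockout, 138 in the astrocyte knockout and 123 in the neuron knockout, and in excitatory nuclei 106, 80.8, 118 and 109 CPM. This level goes against the label, but counts over a whole gene in nuclear RNA do not show the loss of a part of it, so they check neither the knockout nor the label.

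The wild-type library held 45 chosen nuclei, 0.484% of its nuclei with at least 500 genes (exact Clopper-Pearson interval 0.353% to 0.647%). The library labelled total knockout held 828 (2.68%, 2.50% to 2.86%). The astrocyte knockout held 5 (0.0469%, 0.0152% to 0.109%) and the neuron knockout 12 (0.136%, 0.0701% to 0.237%). The total knockout was the high library. These shares count the nuclei that passed the choice, so they are descriptions. Their intervals cover the counting of nuclei and not the spread between animals or libraries. The other inhibitory nuclei, defined by the same Gad and Slc17a7 limits, fewer than 4 of the 8 genes and at least 2 of the interneuron genes Lhx6, Nxph1, Sox6, Adarb2 and Npas1, made up 11.1%, 11.5%, 10.7% and 13.96% of nuclei in the same order. Median depth of the chosen nuclei was 8955 UMIs in wild type, 6291 in the total knockout, 7765 in the astrocyte knockout and 11379 in the neuron knockout.

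**Figure D1:**
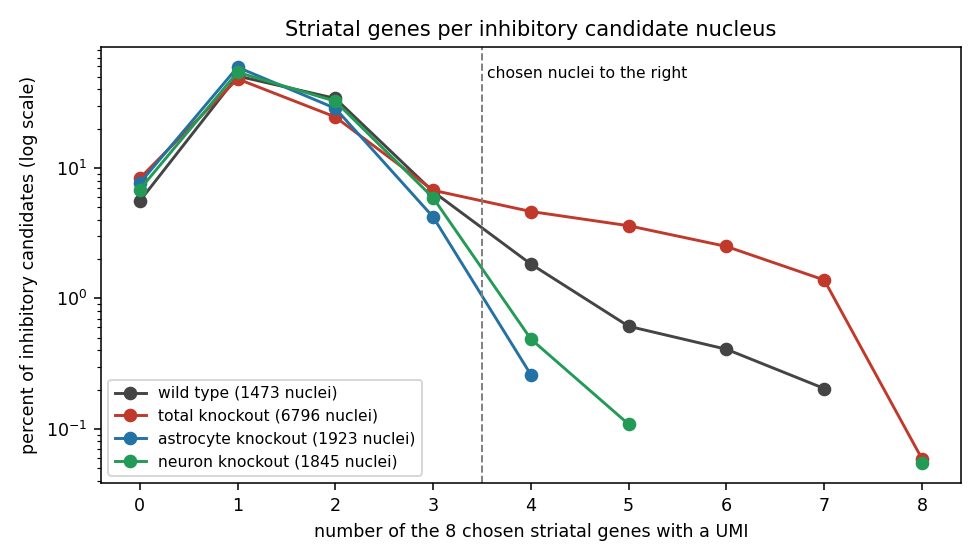
Percent of inhibitory candidate nuclei (log scale) by the number of the 8 striatal genes with a UMI, 1 line per library, with classes that hold no nucleus left out. The lines lie close together up to 3 genes, and from 4 to 7 genes the total knockout line is the highest.

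In the total knockout library 458 candidates had exactly 3 of the 8 genes, 315 had 4, 245 had 5, 170 had 6, 94 had 7 and 4 had all 8. The wild-type counts in the same order were 97, 27, 9, 6, 3 and 0. No candidate of the astrocyte knockout had more than 4, and the neuron knockout had 2 with 5 and 1 with 8. Nuclei just inside the limit differed in kind between the libraries. With exactly 4 genes, total knockout nuclei measured 1665 CPM of Foxp1 and 1102 CPM of Meis2, both transcription factors of striatal projection neurons, and those with exactly 3 genes measured 598 and 482.5 CPM. Wild-type nuclei with exactly 4 genes measured 829 CPM of Foxp1 and 530 CPM of Meis2, and those with exactly 5 measured 2848 and 1480 CPM.

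The label was checked on 20 genes of striatal projection neurons that the choice did not use. In the total knockout library the chosen nuclei had a UMI of 4 at the lowest, 15 at the median and 20 at the highest of these 20 genes. In wild type the values were 3, 13 and 18, in the astrocyte knockout 4, 6 and 11, and in the neuron knockout 4, 10 and 16. The median of the other inhibitory nuclei was 6 in all 4 libraries. At least 12 of the 20 genes were found in 704 chosen nuclei (85.0%) of the total knockout, in 27 (60%) of wild type, in 3 of the neuron knockout and in 0 of the 5 of the astrocyte knockout (which allows up to 60%), and in 27 of 3564 (0.758%) other inhibitory nuclei of the total knockout. Fewer than 12 were found in 124 of the 828 nuclei of the total knockout, in 18 of the 45 of wild type, in 9 of the 12 of the neuron knockout and in all 5 of the astrocyte knockout. The number found depends on depth: thinned to 1000 UMIs, the median was 7 of the 20 genes in the total knockout and 5 in wild type. It was 2 in the astrocyte and 2.5 in the neuron knockout, and 2 in the other inhibitory nuclei of each library. A count under 12 in a shallow nucleus therefore does not by itself go against the label. The check did not bear the label out for nuclei with fewer than 12, so all are called chosen nuclei below. Without Scrublet's doublet calls, nuclei with at least 12 of the 20 genes numbered 460 in the total knockout, 27 in wild type, 1 in the neuron knockout and 0 in the astrocyte knockout; these are called the stricter set below, a choice made after the values were seen.

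Single genes of that list showed the same order. Foxp1 measured 1494 CPM in the chosen nuclei of wild type, 2157 in the total knockout, 243 in the astrocyte knockout and 745 in the neuron knockout, against 260 to 303 CPM in the other inhibitory nuclei of the 4 libraries. Meis2 measured 832, 1256, 354 and 630 CPM, and the 16 Meis2 UMIs of the astrocyte knockout all lay in 1 nucleus. The astrocyte knockout nuclei were the low group for both genes. Somatostatin (Sst), an interneuron peptide, showed another order: 1755 CPM in the chosen nuclei of wild type, 133 in the total knockout, 4176 in the astrocyte knockout and 711 in the neuron knockout. Nxph1, another interneuron gene, measured 1262, 321, 1613 and 1172 CPM. Interneuron genes thus differed between the libraries among the chosen nuclei, so results between libraries are also given in the stricter set.

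The 828 nuclei of the total knockout varied among themselves. Foxp1 measured 642 CPM at the 10th percentile, 2190 at the median and 4146 at the 90th, Meis2 487, 1274 and 2544 CPM, and Pde10a 846, 3201 and 5860 CPM. These spreads include the counting error of single nuclei, which held between 842 and 22870 UMIs.

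**Figure D2:**
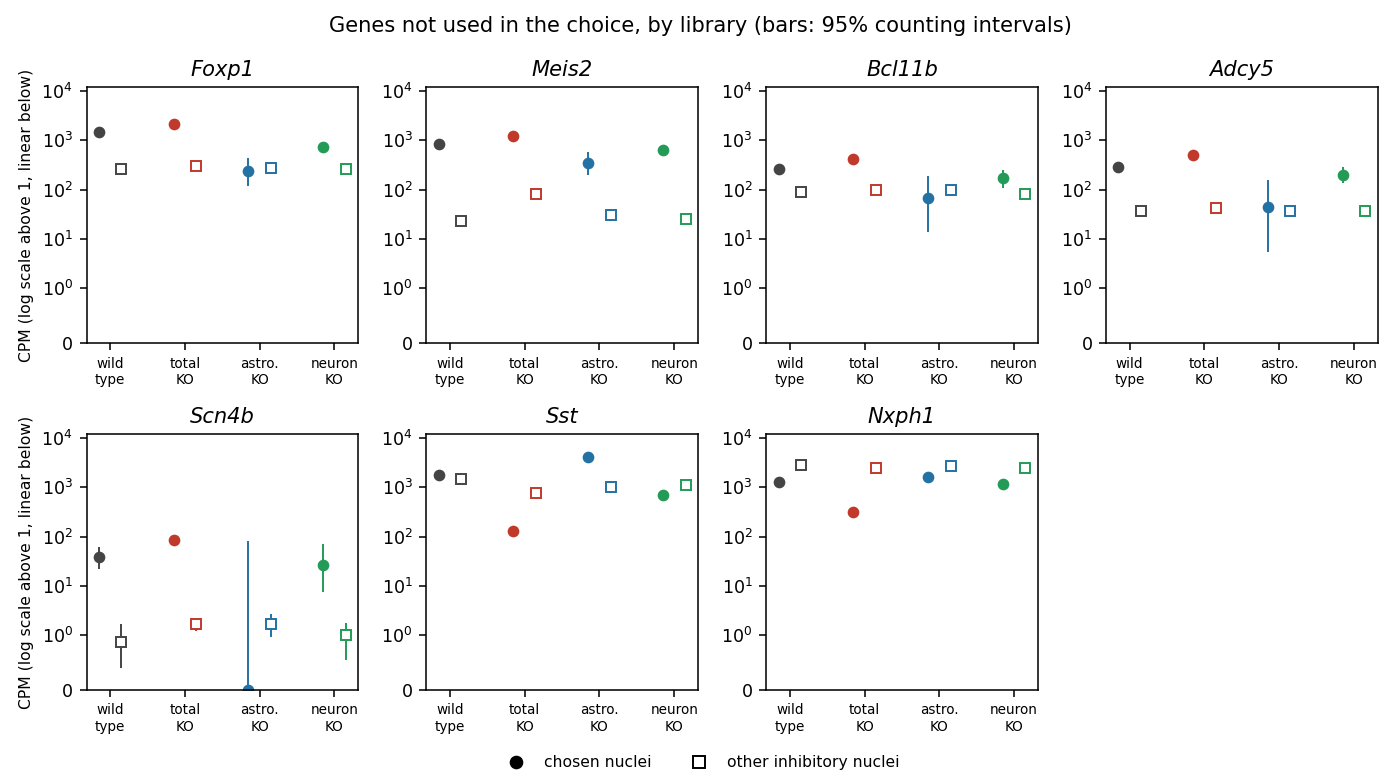
CPM (log scale above 1, linear below) of 5 striatal genes and 2 interneuron genes in chosen (filled circles) and other inhibitory nuclei (open squares) of each library, with 95% counting intervals. Foxp1, Meis2, Bcl11b, Adcy5 and Scn4b are higher in chosen nuclei of the wild-type, total knockout and neuron knockout libraries, and Sst and Nxph1 are lowest in chosen nuclei of the total knockout.

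Among the 8 chosen genes, the dopamine receptors, the signalling genes and the peptide were unevenly detected. Drd1, the D1 receptor, had a UMI in 42.2% of the chosen wild-type nuclei, 35.0% in the total, 1 of 5 in the astrocyte and 25.0% in the neuron knockout. Drd2 was detected in 35.6%, 42.3%, 60% and 83.3%, and Adora2a, the adenosine receptor, in 20.0%, 28.3%, 0 of 5 and 8.33%. Ppp1r1b, which encodes DARPP-32, had a UMI in 37.8%, 50.1%, 0 of 5 and 16.7%, and measured 78.3, 106, 0 and 13.6 CPM. Rgs9, which speeds the shutdown of G protein signals, was detected in 97.8%, 95.5%, 100% and 91.7%, and Rarb, a retinoic acid receptor, in 93.3%, 97.6%, 60% and 75.0%. Pde10a, a striatal phosphodiesterase, had a UMI in 99.5% of the chosen nuclei of the total knockout but also in 96.8% of its excitatory nuclei, so its detection hardly narrowed the choice. Its level differed more: 2383, 3080, 1259 and 1253 CPM in the chosen nuclei against 737 to 867 CPM in excitatory nuclei.

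Free RNA gives UMIs in nuclei that do not express a gene, and excitatory nuclei (at least 5 Slc17a7 UMIs, no Gad UMI) were used to gauge it. Whether excitatory nuclei express some of these genes themselves was not tested, so their UMIs can hold both. In the total knockout library, where excitatory nuclei were deeper (median 11336 UMIs against 6291), Drd1 had a UMI in 2.20% of them, Drd2 in 1.47%, Adora2a in 0.163%, Ppp1r1b in 1.38% and Penk in 4.32%. The shares in chosen nuclei ran from 28.3% for Adora2a to 58.3% for Penk, but the choice required these very genes, so the gap between both kinds of nuclei is no result. At least 4 of the 8 genes were found in 11 of 1228 excitatory nuclei (0.896%) of the total knockout, and in 3 of 1174 (0.256%), 4 of 1041 (0.384%) and 3 of 694 (0.432%) of the wild-type, astrocyte and neuron knockout libraries, so the total knockout had the highest share. The 8 genes together came to 836 CPM in wild-type excitatory nuclei, 779 in those of the total knockout, 902 in the astrocyte knockout and 830 in the neuron knockout. Pde10a alone made up 800, 737, 867 and 797 CPM of these sums, so they do not measure free RNA of the other striatal genes.

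Next, the chosen nuclei of the total knockout were set against its 3564 other inhibitory nuclei, to describe what else the chosen nuclei hold. Of 12330 genes with at least 100 UMIs over both, outside the genes of either definition, 692 (5.61%) were at least 2-fold higher in the chosen nuclei and 1316 (10.7%) at least 2-fold lower, with a median log2 ratio of -0.14 over all of them. Since every nucleus was chosen by genes of the same cells, these are descriptions. Of the 20 striatal genes outside the choice, 19 were past 2-fold higher and 0 lower, with a median log2 ratio of 3.20. The leading gene of all was Sh3rf2 (987 UMIs and 167 CPM against 21 UMIs and 0.854 CPM, log2 ratio 7.61, interval 6.99 to 8.31). Scn4b, a sodium channel subunit, measured 84.2 against 1.67 CPM (5.66, 5.20 to 6.16). Rgs7bp, at 737 against 406 CPM (0.86), was the member of the list that lay within 2-fold. After Sh3rf2, the highest genes by the nearer bound of the interval included Mhrt (7.86), Prkch (6.38), Gli3 (5.71), Scn4b, Gpr6 (5.38), Six3 (4.99), Inf2 (4.64), Baz1a (5.01), Impg1 (5.12) and Tspear (4.91). The lowest were Frem1 (-4.40), Sfta3-ps (-4.37), Myo3a (0 against 150 UMIs, at most -3.59), Cort (-3.98), Pde5a (-3.47), Slc17a8 (-4.15), Egfr (-3.37) and Kcnmb2 (-2.99). Cort, which encodes the somatostatin-like peptide cortistatin, is an interneuron gene.

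The pathway from dopamine receptors to cyclic AMP was higher as a group. Of the 25 genes listed for it, 22 reached 100 UMIs, 16 of these were past 2-fold higher and 0 lower, with a median log2 ratio of 1.60. The shares over all genes were 5.61% higher and 10.7% lower. Of the 25, 8 are also among the 20 striatal genes, so the counts overlap. Gnal, the G protein subunit that couples the D1 and the Adora2a receptor to cyclase, measured 572 against 142 CPM (2.00, 1.94 to 2.07). Its partner Gng7 measured 307 against 37.7 CPM (3.02), and Adcy5, the main striatal adenylyl cyclase, 504 against 41.6 CPM (3.60, 3.49 to 3.70). The phosphodiesterases that end the signal were high too: Pde7b at 3.79, Pde1b at 3.31, Pde2a at 1.69 and Pde4b at 1.42 on the log2 scale. Rasd2, a striatal small G protein, was at 4.24, and Ptpn5, the striatal tyrosine phosphatase STEP, at 1.60. The catalytic and regulatory subunits of protein kinase A were close to the other inhibitory nuclei, with Prkaca at -0.40, Prkacb at 0.19 and Prkar1a at -0.04, and only Prkar2b among the 4 listed was past 2-fold (1.40). In the wild-type library, 13 of 20 genes of this group were past 2-fold higher and 1, Cdk5, lower, where 4.36% of 9577 genes were higher and 11.9% lower.

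Ion channels listed for striatal projection neurons gave 10 of 16 higher and 1 lower, with a median of 1.49. Of these 16, 2 (Scn4b and Kcnab1) are also among the 20 striatal genes, so the counts overlap. Inward rectifiers, which hold resting medium spiny neurons at negative potentials, were represented by Kcnj2 (22.3 against 2.64 CPM, log2 ratio 3.08) and Kcnj4 (31.8 against 8.99 CPM, 1.82). The A-type potassium channel Kcnd2 and its partner Kcnip2 were at 1.66 and 1.73, and Kcnh4, a potassium channel of the ELK family, at 4.16. In the wild-type library 4 of 12 measured channels were higher and 2 lower, beside 4.36% and 11.9% of all genes. Of 22 glutamate and GABA-A receptor subunits, 2 were past 2-fold higher, the extrasynaptic partners Gabrd (112 against 35.8 CPM, 1.64) and Gabra4 (367 against 133 CPM, 1.47), and 4 were lower, among them Grik1 at -2.90, Gabra3 at -1.22 and Gria4 at -1.05. The median over these subunits was 0.05. Over all genes 5.61% were higher and 10.7% lower, so the subunit counts are near the background and are no result about the subunits.

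Transcription factors were listed by the embryonic zone they mark. Of 12 measured factors of the lateral ganglionic eminence, the birthplace of striatal projection neurons, 7 were past 2-fold higher and 2 lower. The shares over all genes were 5.61% higher and 10.7% lower. Of the 7, Rxrg, Meis2, Foxp1 and Bcl11b are also among the 20 striatal genes. Six3 measured 33.7 against 1.06 CPM (4.99, 4.40 to 5.64), Ebf1 136 against 7.40 CPM (4.20) and Foxp2 586 against 48.5 CPM (3.60). The lower pair were Dlx1 (6.77 against 38.7 CPM, -2.52) and Dlx2 (-3.32), factors of GABAergic precursors. Of 4 measured factors of the medial and caudal eminences outside the reference genes, none was higher and Maf (-2.82), Nr2f2 (-2.19), Satb1 (-1.64) and Prox1 (-1.09) were lower. The other inhibitory nuclei were defined in part by Lhx6, Sox6, Adarb2 and Npas1 of that list, so these lower values describe the comparison. Gli3, a hedgehog pathway factor, was among the leading genes at 93.7 against 1.79 CPM (5.71).

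Among 9 neuropeptides, the striatal peptides Tac1 (129 against 40.9 CPM, 1.65) and Pdyn (17.3 against 4.15 CPM, 2.06) were higher, and 7 were lower, with Sst at -2.55, Npy at -2.23, Crh at -2.10, Vip at -2.04, Cck at -1.88, Tac2 at -1.80 and Cartpt at -1.27. In the wild-type library 1 of 8 measured neuropeptides was higher and 3 were lower, with Sst at 0.23. Of 8 interneuron genes outside the reference definition, 7 were lower and 0 higher in the total knockout. In wild type 5 of the 8 were lower and 0 higher. The other inhibitory nuclei were defined by interneuron genes, so lower values of further interneuron genes and peptides describe the comparison. In the total knockout, of 14 receptors listed for striatal projection neurons, 5 were higher: Gpr6 (5.38), the serotonin receptor Htr1b (2.99), the kappa opioid receptor Oprk1 (2.37), the adenosine receptor Adora1 (1.76) and the muscarinic receptor Chrm1 (1.09). The mu opioid receptor Oprm1 measured 50.4 against 66.2 CPM (-0.39). Immediate early genes, induced within minutes of activity, were past 2-fold higher in 7 of 15, among them Egr3 (25.0 against 3.497 CPM, 2.84), Arc (16.7 against 3.90 CPM, 2.10) and Homer1 (538 against 154 CPM, 1.81), while Fos itself measured 5.92 against 6.10 CPM (-0.04). Beside these counts, 5.61% of all genes were higher and 10.7% lower in the total knockout, and 4.36% and 11.9% in wild type.

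Neighbouring striatal and limbic cell types were covered by further lists, beside 5.61% of all genes higher and 10.7% lower. Of 7 measured genes of the central amygdala and intercalated cells, Foxp2 alone was higher and Sst, Zeb2, Crh and Tac2 were lower, and Prkcd, a central amygdala marker, had 14 UMIs in the 828 nuclei. Of 7 lateral septum genes, Foxp2 was again the 1 higher and 4 were lower, among them Trpc4 (86.1 against 279 CPM, -1.70). Ventral striatal genes gave 3 of 7 higher (Wfs1, Crym and Zbtb20) and 1 lower (Trhde). Striosome genes gave 4 of 10 higher (Kremen1, Pdyn, Tac1 and Lypd1) and 1 lower, and matrix genes 5 of 10 higher (Id4, Sv2b, Gucy1a1, Epha4 and Sgk1) and 2 lower. Genes of cholinergic and dopaminergic neurons summed to 8.46 CPM in the chosen nuclei, with Slc18a3 and Th at 0 UMIs. In the wild-type library, 2 of 6 measured genes of the central amygdala list were higher, Foxp2 and Calcrl, and 2 were lower. The shares over all genes there were 4.36% higher and 11.9% lower.

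Genes of the endocannabinoid system lay mostly within 2-fold of the other inhibitory nuclei, as did most genes. Of 15 measured genes, 2 were past 2-fold higher and 2 lower, with a median of -0.32. Over all genes 5.61% were higher and 10.7% lower, so these counts are near the background and are no result about the group. Mgll itself measured 69.7 against 116 CPM (-0.74, interval -0.89 to -0.59). Cnr1, which encodes CB1, measured 315 against 297 CPM (0.09, 0.01 to 0.16). Dagla, which makes 2-arachidonoylglycerol, measured 54.8 against 39.5 CPM (0.47), and Napepld, an enzyme of anandamide synthesis, 8.79 against 18.9 CPM (-1.11). The receptors and effectors that drive synthesis gave Plcb1 at 2887 against 1280 CPM (1.17), Grm5 at 4307 against 2562 CPM (0.75) and Plcb4 at 38.9 against 165 CPM (-2.09). Plcb4 and Napepld were the lower genes, and Plcb1 and Chrm1 the higher ones.

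Within the library labelled total knockout the chosen nuclei fell into both receptor classes. Drd1 alone was detected in 271 nuclei (32.7%), Drd2 or Adora2a without Drd1 in 381 (46.0%), both in 19 (2.29%) and neither in 157 (19.0%). The wild-type nuclei numbered 19, 18, 0 and 8, the astrocyte knockout 1, 3, 0 and 1, and the neuron knockout 2, 9, 1 and 0. Median depth was 6432 UMIs in Drd1-only nuclei, 6128 in Drd2-or-Adora2a-only nuclei and 10971 in those with both. Drd1, Drd2 and Penk are among the 8 genes of the choice, which needed 4 of them, so how often they occur together is a description. Of the 290 nuclei with Drd1, 18 (6.21%) also had Drd2, against 61.7% of nuclei without Drd1. Tac1, the substance P precursor, which the choice did not use, was detected in 204 of these 290 (70.3%) and in 18.6% of nuclei without Drd1. Penk, the enkephalin precursor, was detected in 324 of the 350 nuclei with Drd2 (92.6%) and in 33.3% of those without.

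Of 6174 genes with at least 100 UMIs over both classes, 27 (0.437%) were at least 2-fold higher in the Drd1-only nuclei and 20 (0.324%) at least 2-fold lower (0.761% either way), leaving out the 3 receptor genes that define the classes. Tac1 measured 260 CPM against 15.4 CPM (515 and 40 UMIs, log2 ratio 4.07, interval 3.61 to 4.57). Ebf1, a transcription factor of direct pathway neurons, measured 256 against 19.7 CPM (3.70, 3.29 to 4.15). Further genes higher in the Drd1-only nuclei were Sntg2 (3.00), Ankfn1 (2.27), Zfp521 (2.26), Cntnap3 (2.23), Foxp2 (1.83) and Lingo2 (1.78). Ankfn1 rested in part on a small sub-cluster, numbered 7 below: its 28 nuclei measured 673 CPM of Ankfn1 against 32.9 CPM in the rest. Without them the Ankfn1 ratio was 1.47 (73 and 36 UMIs, 0.88 to 2.09), and in wild type it was 0.30. The other 7 ratios were between 1.59 (Foxp2) and 4.05 (Tac1) without these nuclei. Pdyn, the dynorphin precursor, had 72 UMIs in Drd1-only nuclei and 2 in the others, and Isl1, a factor of the direct pathway, 41 and 3, both under the limit of 100 UMIs.

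Penk, which helped to choose the nuclei but not to split them, measured 49.0 CPM in the Drd1-only and 873 CPM in the Drd2-or-Adora2a-only nuclei (97 and 2260 UMIs, log2 ratio -4.16). Gpr6, an orphan receptor of indirect pathway neurons, had 2 UMIs in the Drd1-only and 119 in the other class (1.01 against 46.0 CPM, -5.51, with an interval from -8.57 to -3.62). The kainate receptor subunit Grik3 was at -2.45, the delta opioid receptor Oprd1 at -2.44 and the muscarinic receptor Chrm3 at -1.78. Adk and Nt5e, an adenosine kinase and the ectoenzyme that forms adenosine, were also in this class, at -1.78 and -2.08. Fig4 (-1.81) and the calcium-binding protein gene Necab1 (-1.72) complete the 8 lowest outside the genes of the choice.

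Genes of the shared machinery lay within 2-fold between the classes, as did nearly all genes. None of the 20 striatal genes outside the choice, 21 measured dopamine and cyclic AMP genes, 16 ion channels or 14 measured endocannabinoid genes was past 2-fold, and the group medians were 0.01, -0.08, 0.02 and 0.09. With 0.761% of all genes past 2-fold either way, these counts of 0 are near the background and are no result about these groups. Gnal measured 572 CPM in the Drd1-only and 603 CPM in the other class (-0.08) and Adcy5 541 against 492 CPM (0.14). Mgll measured 71.7 against 65.7 CPM (0.13, -0.21 to 0.46) and Cnr1 335 against 298 CPM (0.17, 0.01 to 0.32). Pde4b came nearest to the limit among the signalling genes, at 759 against 1338 CPM (-0.82).

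**Figure D3:**
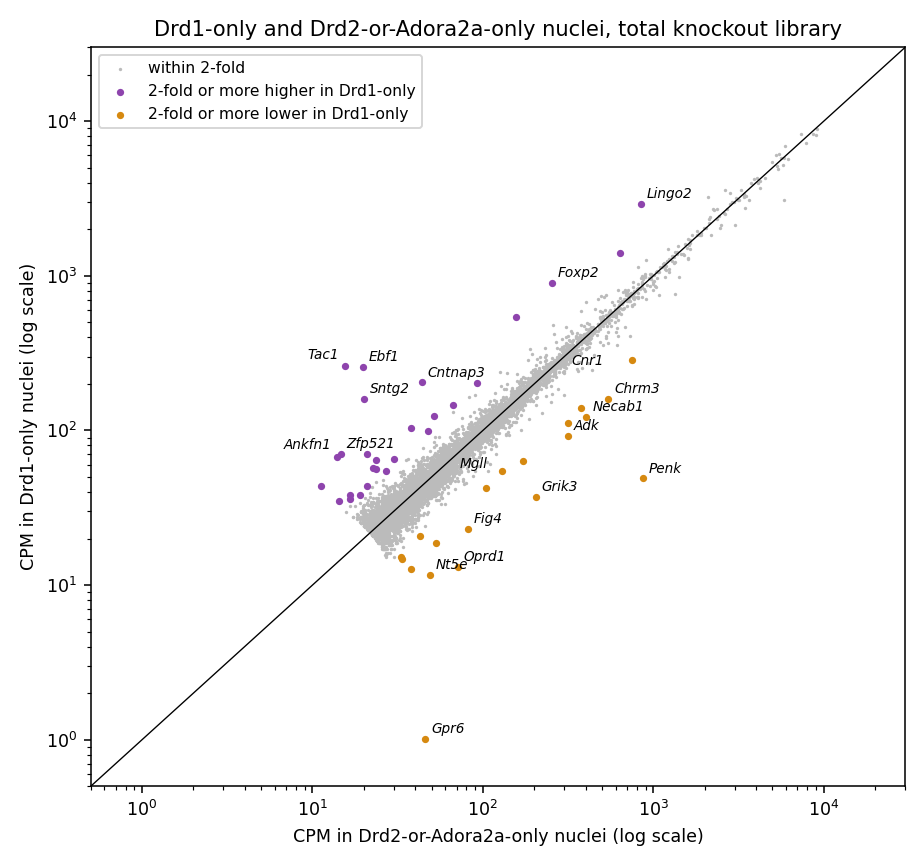
CPM in Drd1-only nuclei against CPM in Drd2-or-Adora2a-only nuclei of the total knockout library (both log scales), 1 point per gene with at least 100 UMIs over both classes, without the 3 genes that define them. Most points lie on the line of equality, with Tac1, Ebf1 and Sntg2 above it and Penk, Gpr6 and Grik3 below it.

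The wild-type library, with 19 against 18 nuclei, gave values on the same side for Penk, Ebf1, Tac1 and Gpr6. Penk measured 94.3 against 949 CPM (-3.33, -4.17 to -2.59), Ebf1 had 60 UMIs against 0 (at least 4.43 on the log2 scale against a floor of 3 UMIs), Tac1 41 against 6 and Gpr6 0 against 7. Only 590 genes reached 100 UMIs there, of which 15 (2.54%) were past 2-fold higher and 29 (4.92%) lower (7.46% either way). Of the 2 measured direct pathway genes none was past 2-fold higher in the Drd1-only nuclei and Reln was lower (283 against 1393 CPM, -2.30). Of the indirect pathway genes outside the choice only Ptprm was measured, and it was lower (330 against 888 CPM, -1.43). Of 4 measured interneuron genes Adarb2 was higher (5.18), and Sst (949 against 2840 CPM, -1.58) and Sox6 (70.8 against 598 CPM, -3.08) were lower.

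For 3 of the 5 class genes Drd1, Drd2, Adora2a, Penk and Tac1, a RefSeq promoter was at hand (build GRCm38.p6), shown because these genes were the receptors that split the nuclei and the leading gene of that split. The 250 bases before the start of each gene are printed 5′ to 3′ on the strand of the gene, with the cyclic AMP response half-site TGACG, or CGTCA on the other strand, in capitals. Drd1 lies on the minus strand at chr13:54055659-54055908, with a second RefSeq start not printed, Drd2 on the plus strand at chr9:49340153-49340402 and Tac1 on the plus strand at chr6:7554811-7555060.
Drd1: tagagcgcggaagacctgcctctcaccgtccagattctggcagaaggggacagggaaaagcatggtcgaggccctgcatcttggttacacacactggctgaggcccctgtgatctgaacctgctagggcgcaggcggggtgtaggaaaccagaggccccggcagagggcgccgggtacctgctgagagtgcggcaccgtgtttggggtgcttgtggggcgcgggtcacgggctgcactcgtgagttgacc
Drd2: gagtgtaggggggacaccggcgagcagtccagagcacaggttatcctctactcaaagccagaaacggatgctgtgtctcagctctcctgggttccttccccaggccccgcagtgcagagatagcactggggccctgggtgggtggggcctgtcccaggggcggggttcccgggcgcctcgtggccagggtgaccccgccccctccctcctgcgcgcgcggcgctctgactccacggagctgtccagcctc
Tac1: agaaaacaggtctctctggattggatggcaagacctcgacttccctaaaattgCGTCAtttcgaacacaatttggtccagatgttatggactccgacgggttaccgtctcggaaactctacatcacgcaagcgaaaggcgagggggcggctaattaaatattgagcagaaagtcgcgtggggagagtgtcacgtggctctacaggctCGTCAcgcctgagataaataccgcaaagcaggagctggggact
The Tac1 window held 2 half-sites, with first bases at -197 and -43 from the start, and the Drd1 and Drd2 windows held 0. A half-site was found in 17.8% of all 32851 windows of this length and the full palindrome TGACGTCA in 1.55%. A match describes letters and shows no binding.

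Last, the chosen nuclei of the total knockout and wild-type libraries were compared, the contrast that bears on the loss of MAGL. It is limited by the 45 wild-type nuclei, of which 27 passed the check on 20 genes, by 298 doublet calls (36.0%) among the 828 against 0 of 45, and by sex: Xist, the RNA of the inactive X chromosome, was detected in 15 of the 45 wild-type nuclei and in 0 of the 828, which allows up to 0.362%. Of 7331 genes with at least 100 UMIs over both, 292 (3.98%) were at least 2-fold higher in the total knockout nuclei and 214 (2.92%) lower (6.9% either way), and with each nucleus thinned to 1000 UMIs 133 were higher and 46 lower. The number higher was smaller without doublet calls and larger in males alone or with a stricter limit on the chosen genes, as given at the end. The number of genes measured can differ between these settings, so these are counts and not shares. In the stricter set (460 against 27 nuclei) 197 of 4458 genes (4.42%) were higher and 83 (1.86%) lower (6.28% either way), without the 20 genes that define it. Other inhibitory nuclei of the same 2 libraries differed in fewer genes, 145 of 12769 (1.14%) higher and 107 (0.838%) lower (1.97% either way). The difference between these shares was not tested, and many more nuclei stand behind the last one. Striatal genes also differed there: 2 of 16 were higher, Dclk3 and Meis2, the latter at 79.9 CPM in the total knockout and 23.2 in wild type (1.79, 1.59 to 1.99).

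Mgll measured 78.3 CPM in the chosen nuclei of wild type, 69.7 in the total knockout, 44.2 in the astrocyte knockout and 40.6 in the neuron knockout. The last 2 rest on 2 and 6 UMIs. The log2 ratio of total knockout to wild type was -0.17 (interval -0.68 to 0.39), and in the stricter set, with 63.0 against 40.2 CPM, it was 0.65 (-0.31 to 1.80). Neither interval excludes equal levels. Its companions in 2-arachidonoylglycerol breakdown, Abhd6 (-0.08) and Abhd12 (-0.28), were also within 2-fold.

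Cnr1 had the highest ratio among the measured endocannabinoid genes. It measured 104 CPM in the chosen nuclei of wild type (44 UMIs), 315 in the total knockout (1863 UMIs), 199 in the astrocyte knockout (9 UMIs) and 122 in the neuron knockout (18 UMIs). The total knockout was the high library, and its ratio to wild type was 1.59 on the log2 scale (1.16 to 2.06). In the stricter set Cnr1 measured 405 against 67.0 CPM, the latter from 15 UMIs in 27 nuclei, and the ratio was 2.60 (1.87 to 3.44). Both classes of the stricter set showed the difference, with 411 against 73.4 CPM in Drd1-only nuclei (8 UMIs in wild type) and 394 against 49.6 CPM in Drd2-or-Adora2a-only nuclei (4 UMIs). In male nuclei alone, a subset chosen after seeing the data, the ratio was 1.83. Other inhibitory nuclei did not share it: Cnr1 measured 297 CPM in the total knockout and 334 in wild type (-0.17, -0.23 to -0.11).

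Of the 14 measured endocannabinoid genes, 2 were past 2-fold higher and 0 lower, Cnr1 and Chrm1, the M1 muscarinic receptor, which measured 63.4 against 21.3 CPM (1.57, 0.63 to 2.71, with 9 UMIs in wild type). Over all genes of this comparison 3.98% were higher and 2.92% lower, and in the stricter set 4.42% and 1.86%. Chrm1 in the stricter set was at 1.24 (0.17 to 2.58), and in other inhibitory nuclei at 0.54. Dagla measured 54.8 against 40.3 CPM (0.44, -0.26 to 1.24) and in the stricter set 57.9 against 26.8 CPM (1.11, -0.04 to 2.58), so that 3 of 11 genes were past 2-fold there. Plcb1 and Grm5, with over 1000 UMIs in each group, gave narrow intervals near equality, 0.15 (0.06 to 0.24) and 0.23 (0.16 to 0.30).

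**Figure D4:**
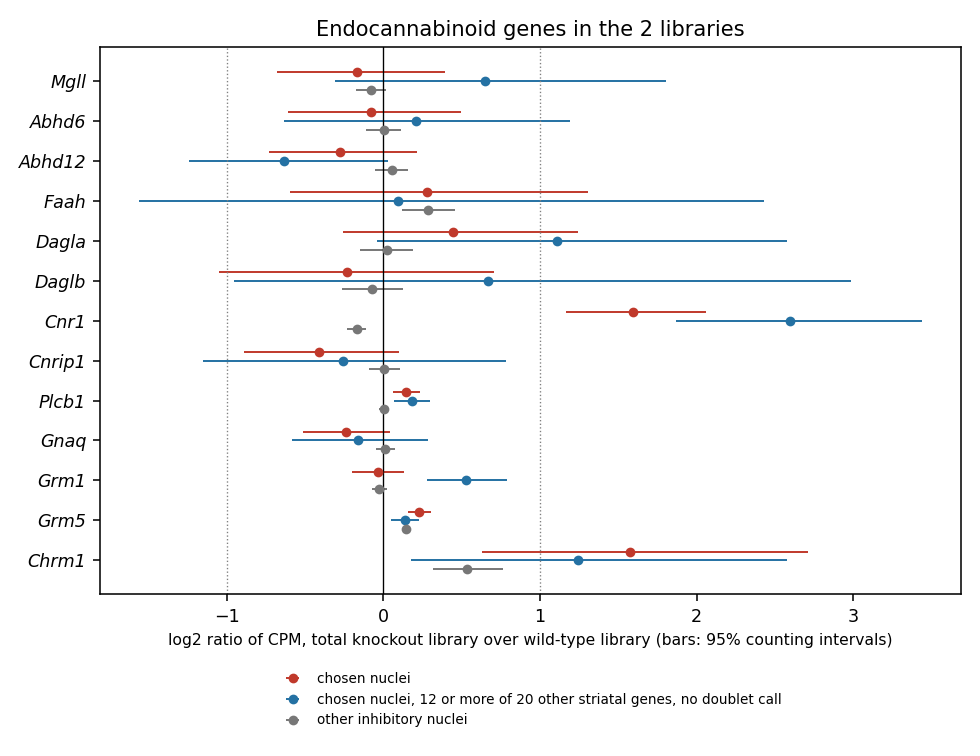
Log2 ratio of CPM, total knockout library over wild-type library, of 13 endocannabinoid genes in all chosen nuclei (red), the stricter set (blue) and other inhibitory nuclei (grey), with 95% counting intervals and dotted lines at 2-fold. Cnr1 lies to the right in both sets of chosen nuclei, at 1.59 and 2.60, and at -0.17 in other inhibitory nuclei.

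The highest genes of the comparison rested on few wild-type UMIs, and their ratios in the stricter set are given beside them. Myo3b, an unconventional myosin, measured 82.0 against 4.74 CPM (485 and 2 UMIs, 4.11, 2.25 to 7.16), and its ratio was 4.75 in the stricter set (327 and 1 UMIs, 2.26 to 10.05). Mme, the enkephalin-degrading peptidase neprilysin, measured 87.9 against 14.2 CPM (2.63, 1.496 to 4.08), with 3.64 in the stricter set (303 and 2 UMIs, 1.77 to 6.69). Gli3 measured 93.7 against 19.0 CPM (2.30, 1.32 to 3.52), with 2.31 in the stricter set. In other inhibitory nuclei Myo3b was at -0.19, Mme at 0.06 and Gli3 at 0.12, the last on too few UMIs to be counted. Chst9, with 231 and 1 UMIs, was at 4.04 (1.55 to 9.35) in all chosen nuclei, 3.37 without doublet calls and 0.78 in the stricter set. With 21 and 1 UMIs there, the last value does not show whether the ratio fell.

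The lowest genes included the interneuron peptides Sst (-3.72) and Vip (-3.42). The others were Lypd6b (-3.43), Trhde (-2.59), which was listed with the ventral striatum, and the kainate receptor subunit Grik1 (-2.58). In the stricter set these genes held too few UMIs to be counted: Sst had 50 in the total knockout and 1 in wild type (2.04, -0.51 to 7.37), Grik1 34 and 0, Trhde 64 and 8 (-0.61), and Vip and Lypd6b 3 and 0 each. Of the 8 interneuron genes measured over all chosen nuclei 6 were lower, and in the stricter set 1 of 2, Adarb2 (-1.25). The shares of all genes that were lower were 2.92% and 1.86% in the same order. The interneuron genes summed to 5023 CPM in the chosen nuclei of wild type and 1553 in the total knockout, and to 773 and 331 CPM in the stricter set, where 8 of the 13 were at 0 in wild type and 2, Lhx6 and Npy, in the total knockout. Their part in the differences was not tested beyond the stricter set. Oligodendrocyte genes summed to 68.8 CPM in wild type and 338 in the total knockout, and to 80.4 and 134 CPM in the stricter set. Of the 20 striatal genes outside the choice 3 were past 2-fold higher over all chosen nuclei, Dclk3, Rasd2 and Scn4b, with a median of 0.60. The share of all genes that were higher was 3.98%. The 8 genes of the choice, given as a description only, had a median of 0.41 over all chosen nuclei, with Adora2a past 2-fold (1.03), and of 0.11 in the stricter set, with none past it.

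Clustering of the 828 total knockout nuclei gave 9 sub-clusters, which split the receptor classes and set apart nuclei with many doublet calls. Genes that lead a cluster define it and are named only as a description. Sub-cluster 0 held 227 nuclei, 8 of them doublet calls (3.52%), with 155 Drd1-only and 6 Drd2-or-Adora2a-only, and Pdyn, Ebf1 and Tac1 led it. Sub-cluster 1 held 225 nuclei, 3 of them doublet calls (1.33%), with 1 Drd1-only and 209 Drd2-or-Adora2a-only, and Drd2, Adora2a and Penk led it. Past 2-fold against the rest and detected in at least 10% of nuclei were 6 of 10 direct pathway genes in the first and 3 of 10 indirect pathway genes in the second, Gpr6, Grik3 and Penk, of which Penk was used by the choice. The same held for 0.252% and 0.157% of all 22975 genes outside the choice, and for 0.495% and 0.396% of the 7072 with at least 100 UMIs. Mgll measured 70.5 and 67.5 CPM in them and Cnr1 413 and 405 CPM. Sub-cluster 7 (28 nuclei, 2 doublet calls, 18 Drd1-only, 0 Drd2-or-Adora2a-only) was led by Ankfn1, Sema5b, Vwc2l and Tshz1, with Foxp2 at 3881 CPM, Casz1 at 129 CPM and Ebf1 at 0. It held 6 of 9 eccentric projection neuron and 5 of 10 striosome genes by the same criterion, which 3.41% of all genes and 5.27% of those with at least 100 UMIs met, and was given no name.

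The other 6 sub-clusters had 52.8% to 91.7% doublet calls. The share of all genes that met the criterion was 1.27% in sub-cluster 2, 2.77% in 3, 1.99% in 4, 2.69% in 5, 3.05% in 6 and 6.27% in 8. Of the genes with at least 100 UMIs it was 1.99%, 3.42%, 2.76%, 4.2%, 3.42% and 7.38% in the same order. Sub-cluster 3 (85 nuclei, 89.4%) held 11 of 13 interneuron genes, with Sst at 726 CPM. Sub-cluster 6 (33 nuclei, 87.9%) held all 8 oligodendrocyte genes and sub-cluster 8 (12 nuclei, 91.7%) all 6 oligodendrocyte precursor genes. Sub-cluster 2 (120 nuclei, 78.3%) held 5 of 9 excitatory genes and sub-cluster 4 (62 nuclei, 90.3%) 4 of 9, with Prox1 among its leading genes, and both counts include Slc17a7, which the choice limited to 1 UMI. Sub-cluster 5 (36 nuclei, 52.8%, 29 Drd2-or-Adora2a-only) was led by Calcrl, Pde11a and Unc5d and had Cnr1 at 25.5 CPM and Mgll at 20.4 CPM. These were the lowest of the 9 in both, but each rests on few UMIs.

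**Figure D5:**
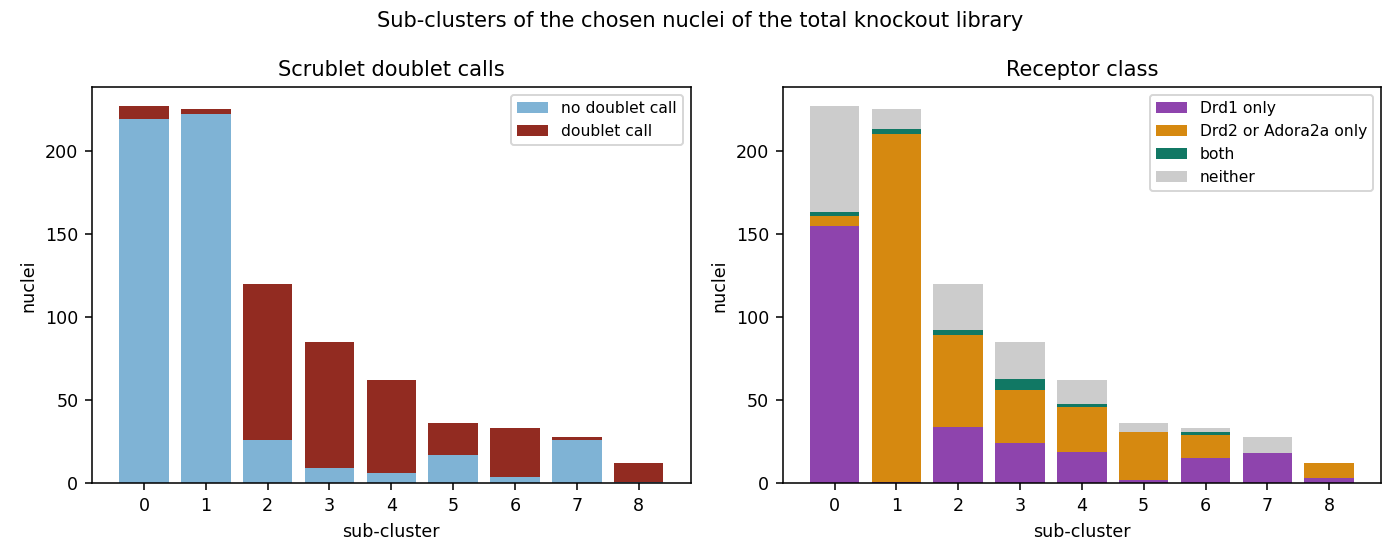
Number of nuclei in each of the 9 sub-clusters of the chosen total knockout nuclei, split by Scrublet doublet call (left) and by receptor class (right). Sub-clusters 0, 1 and 7 have few doublet calls, and sub-clusters 0 and 1 hold most of the Drd1-only and the Drd2-or-Adora2a-only nuclei.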

How the data were processed

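Nuclei were lysed, dounced and cleaned on iodixanol, and their RNA was read with a 10x Multiome kit, per the labels' protocols. The authors deposited whole-number UMI counts per gene and barcode, made with Cell Ranger ARC 2.0.0 on mm10, per the submitters' processing notes. The sources used here do not give the annotation, strand or intron use. Symbols were used as the files give them (22989 in any library). Members and gene lists were chosen with earlier results of these data known.

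UMIs were summed over nuclei of a set and scaled to 1000000 (CPM). Ratios carry exact conditional binomial intervals and single levels exact Poisson intervals. Only the ratio intervals were run on simulated data. Those were Poisson counts, which the intervals assume and which leave out the spread between nuclei. Genes with at least 100 UMIs over both sets were counted, and called past 2-fold. A 0 was set to a floor of 3 UMIs over the set. Genes were named from the lists and by the nearer bound of the interval: 12 highest and 8 lowest against other inhibitory nuclei, 8 each way between receptor classes, 5 each way between libraries. Some genes that these rules name are not reported here. Scrublet (scanpy 1.11.5) assumed 0.8% doublets per 1000 barcodes within each library, and its calls were kept unless stated. Sub-clusters used Leiden (leidenalg 0.10.2). Other tools were Python 3.11.15, numpy 2.4.6, scipy 1.17.1 and pandas 2.3.3. Alternatives were other limits of the choice, UMI minimum and fold, doublet removal, means over nuclei, thinning to 1000 UMIs and, added after seeing the data, the stricter set, males only and the classes without sub-cluster 7.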

Additional observations from a re-analysis of the deposited data

Results flagged for a closer look

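In chosen against other inhibitory nuclei, 5 genes lay on opposite sides in the total knockout and wild-type libraries, each with 1 library behind it, and none of these differences was tested. The log2 ratio of Eya1 was -0.81 in the total knockout and 0.68 in wild type. For Lypd6b it was -2.33 and 0.74, for Tac2 -1.80 and 0.63, and for Vip -2.04 and 0.72. Myo3b went the other way, with 1.61 in the total knockout and -2.70 in wild type. Interneuron genes summed to 1553 CPM in the chosen nuclei of the total knockout and 5023 CPM in those of wild type, and their part in these values was not tested.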

How the results depend on the processing

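No paired analysis was possible because each genotype has 1 library, and for the same reason no replicate could be left out. With at least 3 of the 8 genes the chosen share was 1.53% in wild type, 4.16% in the total knockout, 0.806% in the astrocyte and 1.37% in the neuron knockout. With at least 5 it was 0.193%, 1.66%, 0% and 0.0339%, and with barcodes thinned to 1000 UMIs 0.0434%, 0.306%, 0% and 0%. The total knockout was the highest each time. Its share was 2.24% without doublet calls, 2.90% with at least 1000 genes, 2.37% with no Slc17a7 UMI and 1.72% with at least 2 Gad UMIs. Genes higher and lower than in other inhibitory nuclei numbered 1178 and 2326 at a minimum of 20 UMIs, 377 and 751 thinned, and 1321 and 2633 past 1.5-fold. Between the receptor classes they numbered 189 and 168, 7 and 9, and 105 and 123 in the same order, with 32 lower at 5 or more of the 8 genes. Between the total knockout and wild type they numbered 828 and 951, 133 and 46, and 830 and 825. There, 173 were higher without doublet calls, 631 with at least 5 of the 8 genes and 511 in males, and 83 were lower in the stricter set. The number of genes measured can differ between settings (7331 over all chosen nuclei, 4458 in the stricter set). All these numbers are therefore counts and not shares. Sst turned to 4.00 with at least 5 of the 8 genes and to 2.04 in the stricter set, and Trhde to 2.61 with at least 5, each on few wild-type UMIs. Thinned excitatory nuclei had summed levels of the 8 genes, mostly Pde10a in the unthinned nuclei, of 814, 954 and 895 CPM in the total, astrocyte and neuron knockouts. Among alternative values of single genes, 364 lay within the counting interval of the reported value, 279 outside it, and 3 values past 2-fold changed sign. Cnr1 in the total knockout against wild type lay between 1.17 and 2.60. The cause of these changes was not tested. At 45 wild-type nuclei, genes with few UMIs there have wide intervals.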
